A study of Homo sapiens with 9 samples.

Results

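The 30 genes described here make cholesterol or control how much of it a cell makes and moves. They were taken by symbol, and each gene's level was the sum of the FPKM values of its RefSeq transcripts, a count of fragments scaled by transcript length and library depth. Of the 30, 18 encode synthesis enzymes and 12 encode regulators and transporters, out of 27902 genes in the tables. The 18 enzymes divide into 7 of the mevalonate pathway, which builds isoprenoid units from acetyl-CoA, and 11 of the sterol branch, which joins and cyclises them and trims the product to cholesterol. The 12 others divide into 7 genes of the SREBP machinery and 5 genes of cholesterol transport and the liver X receptor (LXR) response.

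RNA-seq was done on DU145, an established human prostate cancer line that lacks the androgen receptor. The cells carried 1 of 3 lentiviral pLKO.1 constructs without an inducible switch: a scrambled shRNA (scramble), shRNA FZD6 #1 (shRNA1) or shRNA FZD6 #2 (shRNA2), both aimed at *FZD6*, which encodes the Wnt receptor Frizzled-6. Each of the 3 groups had 3 libraries, 9 in all, and every sample is labelled WT for genotype and belongs to the same line, with no other treatment given in the labels. The labels call the 3 libraries of a group a triplicate and do not say whether they came from separate cultures, so p-values measure only the spread between these libraries.

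A cell makes cholesterol through a long chain of enzymes in the cytosol and endoplasmic reticulum, and most genes of the chain are switched on by the transcription factor SREBP-2, the product of *SREBF2*. SREBP-2 and its relative SREBP-1 (*SREBF1*), which acts more on fatty acid genes, are made as membrane proteins held in the endoplasmic reticulum by INSIG proteins and escorted by SCAP to the Golgi, where the proteases encoded by *MBTPS1* and *MBTPS2* cut them free. When sterols are plentiful INSIG holds SCAP back, and oxysterols activate LXR, which raises export through ABCA1 and ABCG1.

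*FZD6*, the targeted gene, was measured at 20.9, 20.5 and 20.04 FPKM in the scramble libraries, 9.47, 10.2 and 9.80 FPKM with shRNA1 and 7.84, 8.79 and 7.69 FPKM with shRNA2, so the knockdown libraries lay below every scramble library. Its mean fell by 56.3% over the 6 knockdown libraries (log2 fold change -1.12, SE 0.085, limma adjusted p = 0.00049), and a two-sided exact permutation test over the 9 libraries gave p = 0.0119, the smallest it can give. Depth, estimated from the confidence bounds Cufflinks wrote, was 32400000 to 40400000 fragments per library. At that depth *MVK*, which had the fewest fragments among the lipid genes called lower or higher after knockdown, rested on an estimated 655 fragments or more in each library. Of 6 epithelial markers (*EPCAM*, *CDH1*, *KRT7*, *KRT8*, *KRT18* and *KRT19*) all were detected, with a summed level of 1680 to 1720 FPKM in scramble and 1630 to 1820 FPKM in knockdown libraries. Of the 6, *EPCAM* (0.26 on the log2 scale, adjusted p = 0.0173) and *KRT19* (0.15, 0.00793) were higher and *CDH1* (-0.28, 0.0104) lower after knockdown, and their part in the results below was not tested. The 8 markers of blood, stromal, endothelial and neuroendocrine cells summed to 0.767 to 0.8 FPKM in scramble and 0.73 to 1.23 FPKM in knockdown libraries, and 2 of them were listed at 0 throughout.

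A part of the cholesterol genes was a little lower after *FZD6* knockdown, 9 of 27 tested, and none passed the test as higher. Of the 30 genes, 27 were tested, having averaged 1 FPKM or more across the 9 libraries with a valid estimate in each. *ABCA1* and *ABCG1* were below that level, and *DHCR7* had a failed estimate in 1 library. Of the 27, 9 were lower in the 6 knockdown than in the 3 scramble libraries (33.3%) at a limma adjusted p under 0.05 over 12509 genes, where 7.1% of all genes tested were lower. With quantile normalization, which evened the split of all calls (8.37% of genes higher and 8.46% lower), 11 were lower and 0 higher. The 9 lower without it were 5 of 17 enzymes (*HMGCS1*, *MVK*, *MVD*, *LSS* and *MSMO1*) and 4 of 10 regulators and transporters (*SREBF1*, *SREBF2*, *INSIG1* and *NPC1*). No gene of the 27 was higher by limma at the adjusted threshold, against 13.5% of all genes tested. At an unadjusted p under 0.05 in limma 11 were lower and 0 higher, where 4431 of the 12509 genes tested passed in either direction. Here and below, the genes passing at the unadjusted threshold over all genes were not split by direction. In a count that uses no test, 10 of the 27 (37.0%) had every knockdown library below every scramble library, against 9.46% of all genes tested, and 1 (3.7%), *NR1H2*, had every one above, against 16.4%. The median log2 fold change of the 27 was -0.056, and that of all genes tested was 0.027.

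The changes were small. The largest of the 9, *HMGCS1*, fell by 16.1% and the smallest, *MSMO1*, fell by 7.55%. Under the study's own criteria of an unadjusted p below 0.01 and a change of at least 1.2-fold the count was 0. Of all genes tested, 1.78% were lower under those criteria. The count also depended on the number of control libraries. It was 4, 2 and 5 without scramble replicates 1, 2 and 3, and 8 to 10 without any 1 knockdown library. The share of all genes tested called lower fell as well, to 3.35%, 2.77% and 4.38% without scramble replicates 1, 2 and 3. It was 5.73% to 9.75% without any 1 knockdown library. *LSS* and *NPC1* were called whichever library was left out. In bulk RNA, fewer cells expressing a gene and less RNA per cell cannot be told apart.

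**Figure D1:**
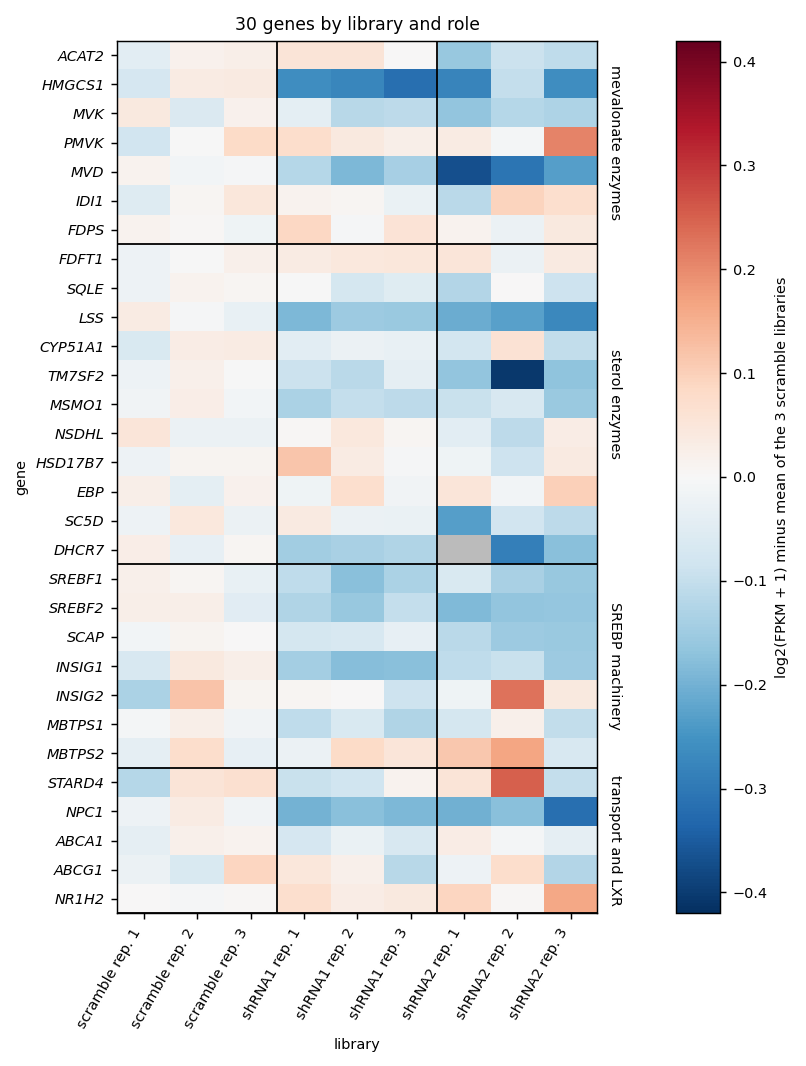
Difference of log2(FPKM + 1) from the mean of the 3 scramble libraries for each of the 30 genes (rows, by role) in each of the 9 libraries (columns). Blue is lower and red is higher, and the grey cell is the failed *DHCR7* estimate. *HMGCS1*, *MVD*, *LSS* and *NPC1* are blue in all 6 knockdown libraries, while *FDPS* and *FDFT1* stay near the scramble mean.

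Sequence upstream of the start of transcription was read for the genes with a promoter window from RefSeq (GRCh38.p14), which covers 250 bases before and 50 after the start. Of the 30 genes, 26 had a window: 15 enzymes and 11 regulators and transporters. *ACAT2*, *FDFT1*, *SQLE* and *ABCG1* had none. The short motifs searched on both strands are ones that SREBP or its usual partners recognise. They were the sterol regulatory element core TCACCCCAC, the E-box forms TCACGTGA and CACGTG, the NF-Y box CCAAT and the SP1 box GGGCGG. The letters TCACCCCAC stood in 1 of the 26 windows, that of *SREBF2*, and in 0.425% of the first listed windows of 27305 genes. Allowing any base in the middle (TCACNCCAC) added no member and raised the share of all windows to 1.15%. TCACGTGA stood in the *INSIG1* window alone of the 26, against 1.04% of all windows and 2.06% of those of the genes tested. It contains the shorter E-box CACGTG, found in 5 of the 26 (*LSS*, *SC5D*, *SCAP*, *INSIG1* and *ABCA1*) and in 7.43% of all windows and 10.4% of those of the genes tested. CCAAT stood in 12 of 15 enzyme windows (80.0%) and in 3 of 11 regulator and transporter windows (27.3%: *SREBF2*, *INSIG1* and *STARD4*), against 35.7% of all windows and 37.0% of those of the genes tested. GGGCGG stood in 23 of 26 (88.5%), against 44.6% of all windows and 72.1% of those of the genes tested.

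The 180 bases just before the start are given for 5 of the genes that were lower after knockdown, the 2 regulators that hold an SREBP motif and 3 enzymes with repeated CCAAT boxes. Capitals mark TCACCCCAC, TCACGTGA and CCAAT, or ATTGG where CCAAT lies on the other strand.
SREBF2 (chr22:41832925-41833104, forward strand): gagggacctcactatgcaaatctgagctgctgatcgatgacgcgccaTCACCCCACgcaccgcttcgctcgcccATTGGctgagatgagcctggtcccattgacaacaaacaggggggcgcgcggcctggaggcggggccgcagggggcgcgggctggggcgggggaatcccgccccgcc
INSIG1 (chr7:155297698-155297877, forward strand): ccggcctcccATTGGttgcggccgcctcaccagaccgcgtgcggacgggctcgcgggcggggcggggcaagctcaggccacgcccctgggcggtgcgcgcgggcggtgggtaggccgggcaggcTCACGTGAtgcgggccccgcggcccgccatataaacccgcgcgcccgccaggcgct
HMGCS1 (chr5:43313413-43313592, reverse strand): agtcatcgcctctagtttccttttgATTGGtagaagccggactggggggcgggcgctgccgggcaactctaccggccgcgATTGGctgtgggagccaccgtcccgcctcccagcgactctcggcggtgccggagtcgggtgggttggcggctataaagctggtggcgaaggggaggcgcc
MVD (chr16:88663092-88663271, reverse strand): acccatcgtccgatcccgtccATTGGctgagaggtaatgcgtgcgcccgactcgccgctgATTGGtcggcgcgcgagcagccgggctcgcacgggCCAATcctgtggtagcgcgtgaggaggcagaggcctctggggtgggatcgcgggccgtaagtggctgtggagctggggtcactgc
MSMO1 (chr4:165327489-165327668, forward strand): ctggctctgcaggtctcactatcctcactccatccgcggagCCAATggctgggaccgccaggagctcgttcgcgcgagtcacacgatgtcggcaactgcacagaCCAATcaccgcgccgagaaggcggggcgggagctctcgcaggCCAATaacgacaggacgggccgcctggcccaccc
In *SREBF2* the sterol element began 133 bases and the ATTGG 106 bases before the start, and in *INSIG1* the E-box form began 56 bases before it. *HMGCS1* held 2 CCAAT boxes in this stretch, *MVD* 3 and *MSMO1* 3. Repeated CCAAT boxes also stood in the windows of the enzymes *MVK* and *DHCR7*, which were lower too. They stood as well in those of *NSDHL*, *FDPS*, *HSD17B7* and *EBP*, which were not called. The *LSS* window, of an enzyme that was lower, held no repeat. A match describes these letters only, and binding was not measured here.

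The largest changes were in mevalonate enzymes, but not all 7 shared them. After knockdown 3 were lower and 4 were not called. *HMGCS1* (chr5:43287470-43313412 in GRCh38.p14) encodes the synthase that makes HMG-CoA, the committed precursor of mevalonate. It stood at 41.4, 44.6 and 44.8 FPKM in the scramble libraries, at 36.3, 35.9 and 34.8 FPKM with shRNA1 and at 35.8, 40.6 and 36.2 FPKM with shRNA2. Every knockdown library was below every scramble library, and shRNA2 replicate 2 lay apart from the other 5, closest to scramble. The scramble mean was 43.6 ± 1.88 FPKM (SD, n = 3), and it was 36.6 ± 2.03 FPKM over the knockdown libraries (n = 6). The log2 fold change was -0.25 (SE 0.049, limma adjusted p = 0.011). Without scramble replicate 2 the adjusted p was 0.0554 at a log2 fold change of -0.23.

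*MVD* (chr16:88651940-88663091) encodes mevalonate diphosphate decarboxylase, which makes the first isoprenoid unit, isopentenyl diphosphate. It was measured at 42.2, 41.4 and 41.6 FPKM in scramble, 38.3, 36.5 and 37.7 FPKM with shRNA1 and 32.1, 33.5 and 35.3 FPKM with shRNA2. The 3 scramble libraries were tightly grouped, the shRNA1 libraries lay below them and the shRNA2 libraries below those. Its level fell by 14.7% over the 6 knockdown libraries (log2 fold change -0.23, SE 0.056, adjusted p = 0.0234), by 10.1% with shRNA1 and by 19.4% with shRNA2. The difference between the shRNAs, -0.15 on the log2 scale with a 95% interval of -0.24 to -0.065, missed the threshold (adjusted p = 0.0559). With any 1 of the scramble libraries left out the knockdown effect kept its size (-0.23 to -0.22) and its adjusted p was 0.0686 to 0.0856.

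*MVK* (chr12:109573272-109598125), mevalonate kinase, was lower by a smaller margin. It stood at 12.1, 11.2 and 11.9 FPKM in scramble, 11.4, 10.7 and 10.8 FPKM with shRNA1 and 10.3, 10.7 and 10.6 FPKM with shRNA2, and its groups overlapped because scramble replicate 2 lay below shRNA1 replicate 1. The log2 fold change was -0.11 (SE 0.034, adjusted p = 0.0471). This call was the least stable of the 9: it was lost when any library but shRNA1 replicate 1 was left out (adjusted p 0.0554 to 0.174) and with the trend in GC content removed (0.0963).

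The remaining mevalonate enzymes were not called over the 6 knockdown libraries. *ACAT2*, an acetyl-CoA acetyltransferase that starts the chain, stood at 67.1, 70.1 and 70.5 FPKM in scramble, 71.8, 71.8 and 69.3 FPKM with shRNA1 and 61.9, 64.95 and 64.3 FPKM with shRNA2. The shRNA1 libraries overlapped scramble and the shRNA2 libraries lay below both groups. It was the one gene of the 27 that differed between the shRNAs (shRNA2 minus shRNA1 -0.15, SE 0.032, adjusted p = 0.0313), where 4.79% of all genes tested were lower and 1.92% were higher with shRNA2 than with shRNA1. Leaving out any of 7 of the 9 libraries (all but scramble replicate 1 and shRNA2 replicate 2) took the adjusted p of that difference to 0.056 to 0.115. *PMVK*, phosphomevalonate kinase, had 33.99 ± 1.96 FPKM in scramble and 35.5 ± 1.99 FPKM in knockdown libraries (adjusted p = 0.433).

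*IDI1*, the isomerase that interconverts the isoprenoid units, was measured at 39.9 ± 1.45 FPKM in scramble and 40.1 ± 2.07 FPKM after knockdown, with a 95% interval of the log2 fold change of -0.099 to 0.12. *FDPS*, which joins the units into farnesyl diphosphate, had the highest level of all 30 genes and ranged over 217 to 222 FPKM in scramble and 217 to 234 FPKM in knockdown libraries. Its interval of -0.039 to 0.097 around 0.029 does not reach the change seen in *HMGCS1*, *MVD* or *MVK*.

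Among the 11 sterol enzymes, 2 of the 10 tested were lower after knockdown, 8 were not called, and *DHCR7* was fitted apart. *LSS* (chr21:46188446-46228774), lanosterol synthase, folds squalene epoxide into the first sterol. Its libraries read 32.5, 31.7 and 31.1 FPKM in scramble, 27.7, 28.5 and 28.4 FPKM with shRNA1 and 27.3, 26.95 and 26.1 FPKM with shRNA2. The 3 groups followed one another without overlap, and the SD inside each was 0.406 to 0.745 FPKM. Its mean fell by 13.4% (log2 fold change -0.20, SE 0.033, adjusted p = 0.00582), the smallest adjusted p among the 27. Cufflinks split the gene between chromosome 21 and an alternate copy of the region, with 47.3% to 49.4% of its FPKM on the copy in every library, and the sum of both was used. *MSMO1* (chr4:165327669-165343164), a sterol methyl oxidase, stood at 29.4, 30.3 and 29.4 FPKM in scramble, 27.02, 27.7 and 27.4 FPKM with shRNA1 and 27.8, 28.3 and 26.6 FPKM with shRNA2, again without overlap between scramble and knockdown. Its fall of -0.11 on the log2 scale (SE 0.026, adjusted p = 0.0217) was the smallest of the 9, and without any 1 of the 3 scramble libraries the adjusted p was 0.0597 to 0.102.

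*DHCR7* (chr11:71427287-71449043), the last reductase of one arm of the pathway, was the second most abundant of the 30. Its Cufflinks estimate failed in shRNA2 replicate 1, so it was fitted on the other 8 libraries, a choice made after the values were seen. It read 161, 154 and 158 FPKM in scramble, 142, 143 and 144 FPKM with shRNA1 and 129 and 139 FPKM in the remaining shRNA2 libraries. All 5 knockdown libraries lay below the 3 scramble libraries, and the level fell by 11.4% (log2 fold change -0.17, SE 0.042, adjusted p = 0.0258). With this gene counted the total lower was 10 of 28.

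*TM7SF2*, a sterol C14 reductase, read 50.4, 52.001 and 51.2 FPKM in scramble, 48.1, 47.2 and 49.8 FPKM with shRNA1 and 45.6, 38.5 and 45.4 FPKM with shRNA2. Every knockdown library was below scramble, but the 6 were spread widely, with shRNA2 replicate 2 the lowest. Over the 6 libraries the log2 fold change was -0.16 (SE 0.071, adjusted p = 0.138), and without shRNA2 replicate 2 it was -0.12 with an adjusted p of 0.0464. *FDFT1*, squalene synthase, stood at 128 ± 1.88 FPKM in scramble and 131 ± 2.52 FPKM after knockdown, with an interval of -0.026 to 0.089 around 0.032 on the log2 scale.

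*SQLE*, squalene epoxidase and a rate-limiting step, had 48.1 ± 0.672 FPKM in scramble and 46.3 ± 1.63 FPKM after knockdown (log2 fold change -0.056, adjusted p = 0.269). *CYP51A1*, lanosterol demethylase, had 50.4 ± 1.99 and 49.1 ± 1.98 FPKM (adjusted p = 0.566). Their intervals of -0.13 to 0.021 and -0.13 to 0.057 on the log2 scale leave room for a fall of the size seen in *MSMO1*. *NSDHL* (27.6 ± 0.884 and 27.4 ± 1.10 FPKM) and *HSD17B7* (10.6 ± 0.154 and 10.7 ± 0.553 FPKM), which work with *MSMO1* to remove methyl groups, had log2 fold changes of -0.011 and 0.013. *HSD17B7* has a near-identical pseudogene, so its reads may be shared and its value is uncertain. *EBP*, a sterol isomerase, had 72.2 ± 1.86 and 73.7 ± 2.64 FPKM, and *SC5D*, a sterol desaturase, 6.94 ± 0.214 and 6.57 ± 0.475 FPKM. The *SC5D* value with shRNA2 alone, 6.22 ± 0.392 FPKM, gave a log2 fold change of -0.14 that missed the threshold (adjusted p = 0.0548) but passed it with a filter at a mean of 5 FPKM, with centring on library medians, with the length or GC trend removed and with protein-coding accessions alone.

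**Figure D2:**
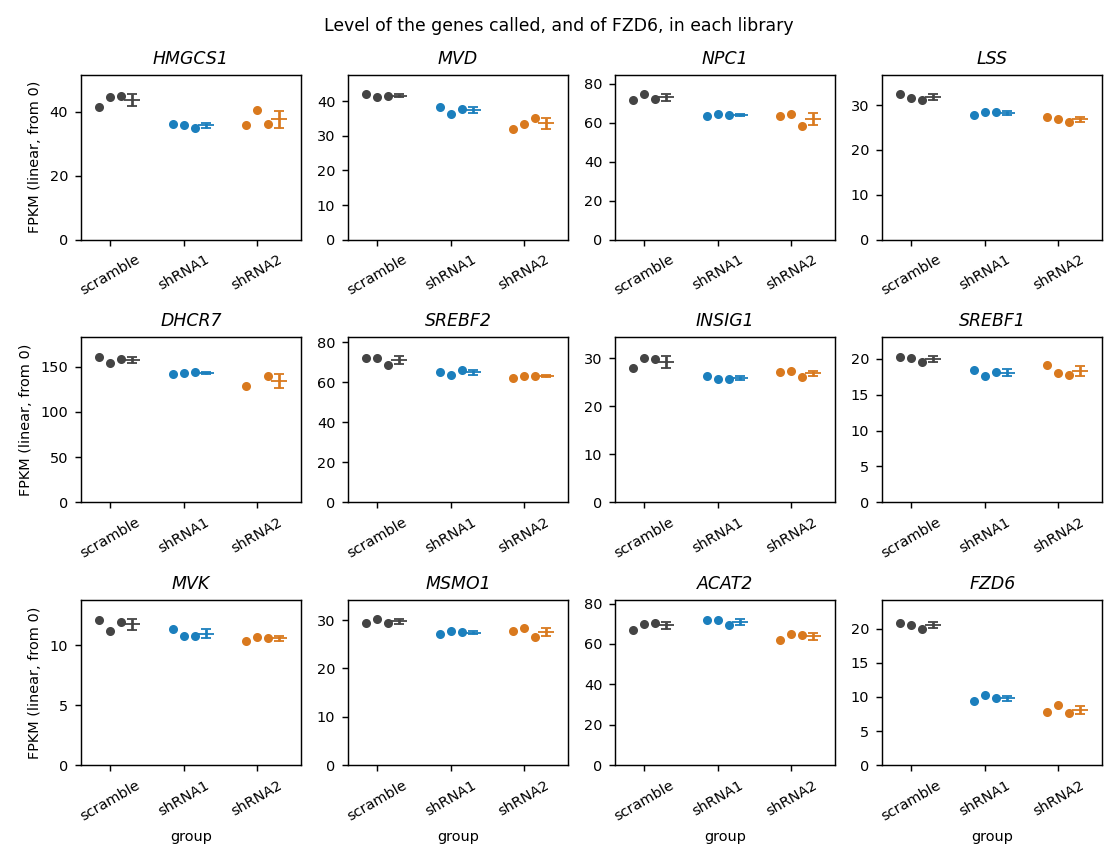
FPKM on a linear scale from 0 in each library of scramble (grey), shRNA1 (blue) and shRNA2 (orange) for the 9 genes called after knockdown, *DHCR7*, *ACAT2* and the targeted *FZD6*; the bar beside the points is the mean ± SD. The knockdown of *FZD6* is plain, while the lipid genes shift by a small part of their level, and *DHCR7* has only 2 shRNA2 points.

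Of the 7 genes of the SREBP machinery, 3 were lower after knockdown: the genes for both SREBP transcription factors and *INSIG1*. *SREBF2* (chr22:41833105-41907305) read 72.3, 72.3 and 68.7 FPKM in scramble, 65.1, 63.6 and 66.3 FPKM with shRNA1 and 62.4, 63.2 and 63.4 FPKM with shRNA2. The 6 knockdown libraries lay below the lowest scramble library, replicate 3. The scramble mean was 71.1 ± 2.09 FPKM (SD, n = 3) and that of the knockdown libraries 64.01 ± 1.42 FPKM (n = 6). This gave a log2 fold change of -0.15 (SE 0.029, adjusted p = 0.0105). *SREBF1* (chr17:17811334-17836986) read 20.3, 20.1 and 19.5 FPKM in scramble, 18.5, 17.6 and 18.2 FPKM with shRNA1 and 19.1, 18.1 and 17.8 FPKM with shRNA2. Here too no knockdown library reached scramble, with shRNA2 replicate 1 the closest, and the log2 fold change was -0.13 (SE 0.030, adjusted p = 0.0203).

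Both SREBP genes have long transcripts, 5469.5 bases for *SREBF2* and 4253 for *SREBF1* (median over matched transcripts). Across the 12092 tested genes with a known length, longer transcripts tended to be lower after knockdown (Spearman's rho -0.438 across genes, which are not independent replicates). With that length trend removed *SREBF2* was at -0.087 (adjusted p = 0.105) and *SREBF1* at -0.098 (adjusted p = 0.0656), neither past the threshold. Without scramble replicate 1 or 2 the adjusted p was 0.0522 to 0.0564 for *SREBF2* and 0.0839 to 0.0865 for *SREBF1*. With the trend in GC content removed *SREBF1* also missed the threshold (adjusted p = 0.0551). The signal of *SREBF1* was split between an entry that starts at chromosome 17 position 17837011 on the reverse strand and a shorter one from 17823630. The longer entry had 10.9 ± 1.26 FPKM in scramble and 9.98 ± 1.11 FPKM in knockdown libraries, the shorter 9.09 ± 1.29 and 8.06 ± 1.33 FPKM, and the spread within groups was larger than these differences.

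*INSIG1* (chr7:155297878-155310235), itself a target of SREBP that holds SCAP in the endoplasmic reticulum, read 27.9, 30.1 and 29.8 FPKM in scramble, 26.4, 25.7 and 25.8 FPKM with shRNA1 and 27.1, 27.3 and 26.2 FPKM with shRNA2. Scramble replicate 1 was lower than the other scramble libraries, yet above all 6 knockdown libraries. The log2 fold change was -0.14 (SE 0.033, adjusted p = 0.0196), and -0.15 with the length trend removed. Without scramble replicate 2 or 3 the adjusted p was 0.0773 to 0.0926. This is the gene whose promoter stretch above carries TCACGTGA.

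*SCAP*, the sterol-sensing escort, had 22.9, 23.3 and 23.2 FPKM in scramble, 21.95, 22.1 and 22.6 FPKM with shRNA1 and 21.3, 20.7 and 20.7 FPKM with shRNA2. No knockdown library overlapped scramble, but the 6 together gave -0.099 on the log2 scale (SE 0.033) with an adjusted p of 0.0649. It passed without shRNA1 replicate 3 (adjusted p = 0.0485) and with shRNA2 alone (-0.14, adjusted p = 0.00687). *MBTPS1*, the protease that makes the first cut in SREBP, had 41.96 ± 0.602 FPKM in scramble and 39.8 ± 1.53 FPKM after knockdown (adjusted p = 0.162), or 0.0247 without shRNA2 replicate 2. *MBTPS2*, which makes the other cut, had 6.55 ± 0.336 and 6.83 ± 0.468 FPKM, and *INSIG2*, the INSIG gene less tied to SREBP, 4.21 ± 0.455 and 4.31 ± 0.406 FPKM. Their log2 fold changes were 0.052 and 0.029, each smaller than its SE.

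**Figure D3:**
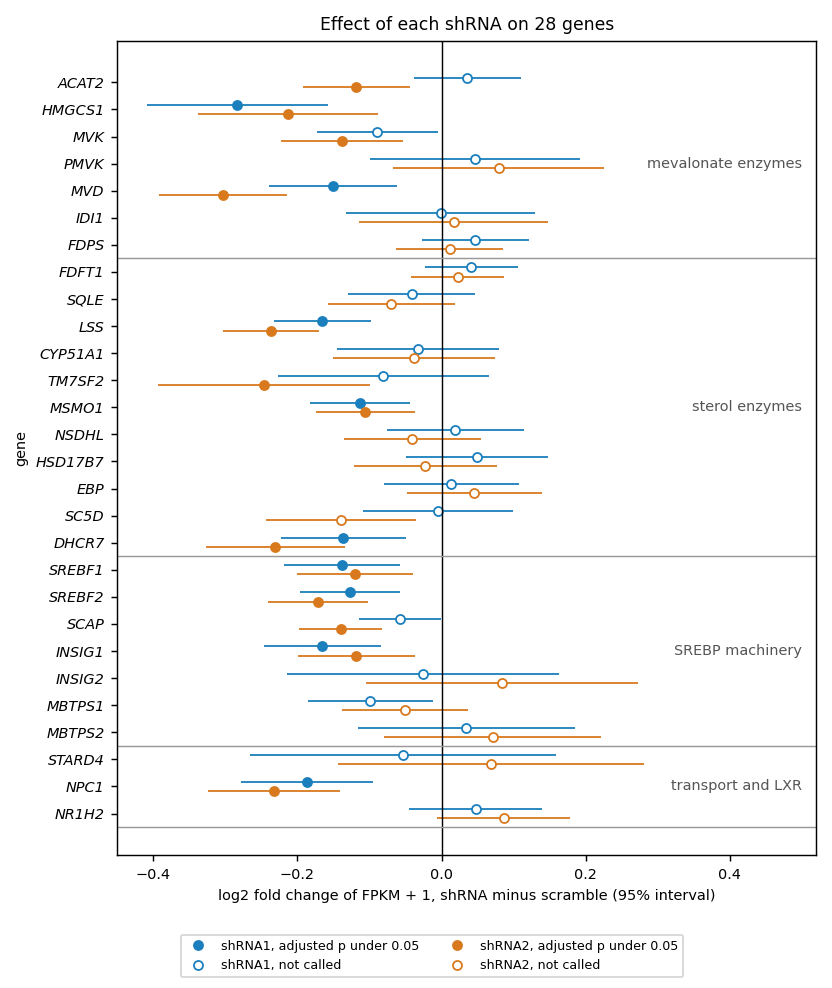
Log2 fold change of FPKM + 1 with its 95% interval for shRNA1 (blue) and shRNA2 (orange) against scramble, for the 27 genes tested and *DHCR7*, by role. Filled points passed the adjusted threshold, and 8 of the 27 tested genes are filled for both shRNAs.

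*NPC1* (chr18:23506184-23586506), which carries cholesterol out of lysosomes, was the one transport gene called. It read 71.8, 74.8 and 72.2 FPKM in scramble, 63.5, 64.5 and 63.9 FPKM with shRNA1 and 63.2, 64.4 and 58.4 FPKM with shRNA2. All 6 knockdown libraries lay below scramble, and shRNA2 replicate 3 was lower than the other knockdown libraries. Its mean fell by 13.7% (log2 fold change -0.21, SE 0.036, adjusted p = 0.00694), and it was still called with the length trend removed (-0.15, adjusted p = 0.0117). *STARD4*, a sterol carrier of the cytosol, was low, at 2.56 ± 0.252 FPKM in scramble and 2.59 ± 0.351 FPKM after knockdown, and its interval of -0.18 to 0.20 on the log2 scale was the widest of the 27.

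*NR1H2*, which encodes the widely expressed LXR beta, read 40.7, 40.4 and 40.7 FPKM in scramble, 42.7, 41.5 and 41.8 FPKM with shRNA1 and 43.3, 40.8 and 45.6 FPKM with shRNA2. All 6 knockdown libraries lay above scramble, with shRNA2 replicate 2 level with the highest scramble library to within 0.1 FPKM. The log2 fold change of 0.067 (SE 0.036) missed the threshold (adjusted p = 0.216), passed it with the GC trend removed (0.089, adjusted p = 0.0319) and shrank to 0.0092 with the length trend removed. The LXR-driven exporters were barely expressed. *ABCA1* ranged over 0.263 to 0.315 FPKM in scramble and 0.235 to 0.325 FPKM in knockdown libraries, and *ABCG1* over 0.219 to 0.357 and 0.171 to 0.343 FPKM. The libraries overlapped for both. Neither reached the filter on low values, and with no filter neither was called in any comparison.

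Taken one shRNA at a time, 8 of the 27 were lower with shRNA1 (7.19% of all genes tested were lower and 11.7% higher) and 12 with shRNA2 (11.4% lower and 15.3% higher). None of the 27 was higher with either, also at an unadjusted p under 0.05 in limma, where 11 were lower with shRNA1 and 13 with shRNA2. At that unadjusted threshold 4362 and 4989 of the 12509 genes tested passed in either direction. *HMGCS1*, *MVD*, *LSS*, *MSMO1*, *SREBF1*, *SREBF2*, *INSIG1* and *NPC1* were lower with both, and shRNA2 added *ACAT2*, *MVK*, *TM7SF2* and *SCAP*. Both comparisons use the same 3 scramble libraries. Fitted with only the libraries compared, 5 were lower with shRNA2 (*MVD*, *LSS*, *SREBF2*, *SCAP* and *NPC1*) and 9 with shRNA1. In those fits 7.78% of all genes tested were lower with shRNA2 and 10.6% with shRNA1. *HMGCS1*, *MSMO1*, *SREBF1* and *INSIG1* then lost the shRNA2 call, as did *ACAT2*, *MVK* and *TM7SF2*, and 4 genes were lower with both. Of the 4 added genes, the difference between the shRNAs passed the test for *ACAT2* only, with -0.049 (adjusted p = 0.479) for *MVK*, -0.17 (0.174) for *TM7SF2* and -0.082 (0.0958) for *SCAP*. The shRNA1 count was 4, 1 and 4 without scramble replicates 1, 2 and 3, and 3, 2 and 1 without shRNA1 replicates 1, 2 and 3. In the same fits 3.58%, 3.09% and 4.4%, and 3.45%, 3.18% and 2.82%, of all genes tested were lower with shRNA1. The shRNA2 count was 6 and 5 without scramble replicates 2 and 3, and 7 and 6 without shRNA2 replicates 1 and 3. Of all genes tested 7.73% and 8.76%, and 9.84% and 8.66%, were lower with shRNA2 in these fits. Without shRNA2 replicate 2, the library that lay nearest scramble for *HMGCS1*, the shRNA2 count was 14, where 15.5% of all genes tested were lower. The targeted *FZD6* was reduced further by shRNA2 than by shRNA1 (-0.25, adjusted p = 0.0273, or 0.0523 to 0.0993 without any of 6 of the 9 libraries, which were scramble replicate 2, the 3 shRNA1 libraries and shRNA2 replicates 1 and 3).

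The enzymes and the regulators and transporters were set side by side as the lists were drawn. The median log2 fold change was -0.041 over the 17 enzymes and -0.087 over the 10 others, so the enzymes stood 0.046 higher. The libraries did not give 1 answer: enzymes minus regulators was 0.051 to 0.098 in the 3 shRNA1 libraries and -0.045 to 0.026 in the 3 shRNA2 libraries. The SD over the 6 was 0.0569, larger than the difference. Tested regulators also had longer transcripts, with a median of 4295.5 bases against 2013 for the enzymes and 2599 for all genes tested. With the length trend removed the enzymes stood 0.011 lower. The sign of the difference thus depended on that adjustment.

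**Figure D4:**
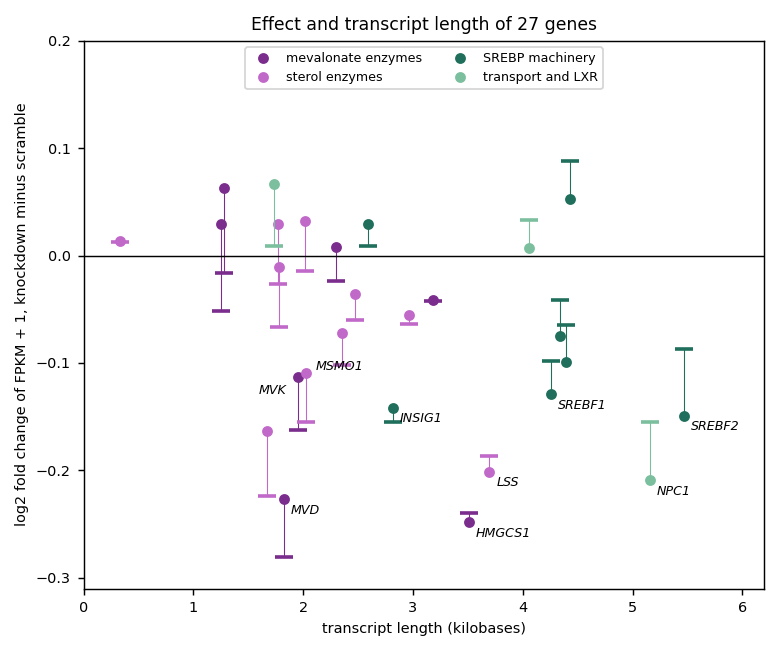
Log2 fold change of FPKM + 1 (knockdown minus scramble) against transcript length in kilobases for the 27 genes tested, coloured by role. A dot is the value as fitted and the dash joined to it the value with the trend over transcript length removed. *SREBF2* and *NPC1*, at over 5 kilobases, move up, and *MVD* and *MVK*, under 2 kilobases, move down.

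Genes around the pathway were taken from 4 further lists. In the fatty acid branch, which SREBP-1 drives, 4 of 12 tested genes were lower and 0 higher, beside 7.1% and 13.5% of all genes tested. At an unadjusted p under 0.05 in limma 5 were lower and 0 higher, where 4431 of the 12509 genes tested passed in either direction. *FASN*, fatty acid synthase, read 90.95, 90.6 and 87.4 FPKM in scramble, 58.2, 58.4 and 57.01 FPKM with shRNA1 and 52.6, 50.6 and 49.4 FPKM with shRNA2, a log2 fold change of -0.71 (SE 0.060, adjusted p = 0.000685). *ACACA*, acetyl-CoA carboxylase, was at -0.42 (adjusted p = 0.00528), or -0.27 (0.019) with the length trend removed, the desaturase *FADS2* at -0.23 (0.00482), and *SCD*, a desaturase named after its value was seen, at -0.20 (0.00371). *FASN* was the one of these that also differed between the shRNAs (-0.18, adjusted p = 0.0163), with an adjusted p of 0.0512 to 0.0699 without any 1 shRNA1 library.

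Of 14 genes that use the isoprenoid units for other ends, such as protein prenylation, 2 were higher and 0 lower over the 6 knockdown libraries, where 13.5% and 7.1% of all genes tested were, so the share higher (14.3%) was near that of all genes. They were the prenyltransferase subunit *RABGGTB* (0.19, adjusted p = 0.0111) and the prenyl protein protease *RCE1* (0.17, 0.00594). At an unadjusted p under 0.05 in limma 3 were higher and 0 lower, where 4431 of the 12509 genes tested passed in either direction. With shRNA1 alone 5 of the 14 were higher and 0 lower, where 11.7% and 7.19% of all genes tested were. With shRNA2 alone 3 were higher and 1 lower, where 15.3% and 11.4% of all genes tested were. The lower gene was *PGGT1B*, a prenyltransferase subunit named after its value was seen (-0.18, 0.00929). Of 8 further genes of sterol sensing and of the turnover of its proteins, 1 was lower and 1 higher (12.5% each). The ubiquitin ligase *MARCHF6*, which degrades SQLE, was lower (-0.24, 0.01), and the ligase *RNF139* was higher (0.16, 0.0411). Of 16 tested genes of further uptake, transport and storage, 2 were higher (12.5%, also near the share of all genes), the cholesteryl ester hydrolase *NCEH1* (0.44, 0.000789) and *NPC2*, the lysosomal partner of NPC1 (0.14, 0.0122). In the same list 3 were lower (18.8%): the endocytic receptor *LRP1* (-0.59, 0.007), the HDL receptor *SCARB1* (-0.17, 0.0392) and the oxysterol-binding *OSBP* (-0.14, 0.0389). *RNF139*, *SCARB1* and *OSBP* each lost the call without any of 6 of the 9 libraries (adjusted p 0.0543 to 0.161, 0.0512 to 0.125 and 0.0603 to 0.121), among them each scramble library. With the length trend removed *OSBP* was at -0.087 (adjusted p = 0.0945), *RNF139* at 0.14 (0.084) and *NPC2* at 0.054 (0.241), none of them past the threshold, while *LRP1* was at -0.36 (0.0158) and *RCE1* at 0.097 (0.0152). *NPC2* lost it without scramble replicate 1 or 2 (0.0522 to 0.0647), *RABGGTB* without scramble replicate 1 (0.0537) and *MARCHF6* without scramble replicate 2 (0.0514). Median log2 fold changes were -0.080 for the fatty acid list, 0.076 for the isoprenoid list, -0.057 for sensing and -0.039 for transport and storage, beside 0.027 for all genes tested.

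**Figure D5:**
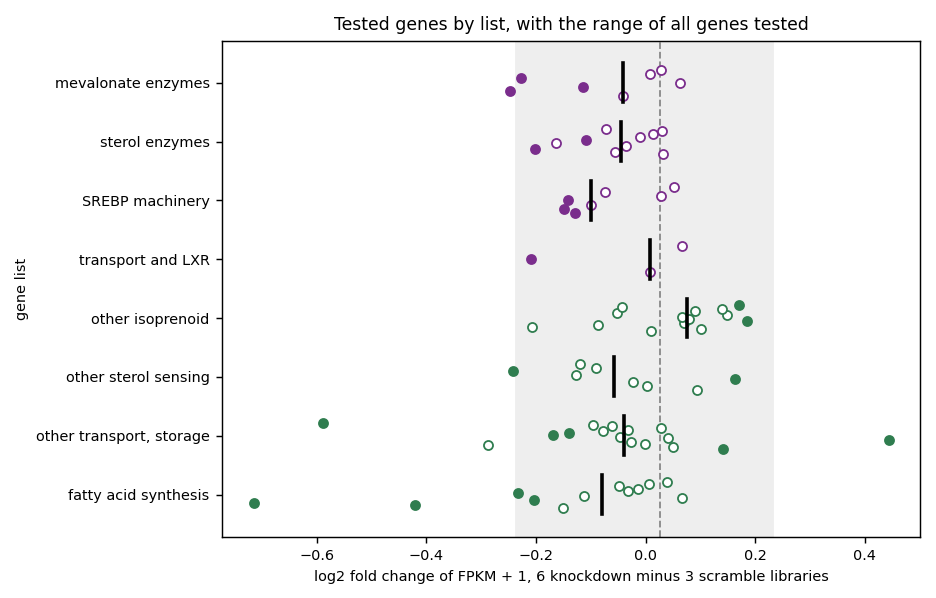
Log2 fold change of FPKM + 1 (6 knockdown minus 3 scramble libraries) for each tested gene of the 4 roles (purple) and the 4 further lists (green). Filled points passed the adjusted threshold, black bars are list medians, the dashed line is the median of all genes tested and the grey band holds their central part, from -0.24 (5th percentile) to 0.23 (95th). The leftmost points are *FASN* and *LRP1*, and *HMGCS1* is the one gene of the 4 roles outside the band.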

How the data were processed

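Total RNA of DU145 cells was sequenced from stranded mRNA libraries (9 samples, 3 per construct). Per the labels and the study's methods, the authors aligned reads with STAR and quantified transcripts with Cufflinks. They deposited FPKM values for each RefSeq transcript, 1 table per library. The labels name hg38 and the loci in the tables lie on it, although the methods name a mouse build. Versions are not given in the sources used here. No read counts were used, so no count model could be fitted.

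Deposited FPKM values were added up by gene symbol (72645 of 73240 accessions matched; 42 genes with a failed estimate were left out) and tested as log2(FPKM + 1). A pseudocount of 1 understates the change of genes at low level. Genes averaging 1 FPKM or more were fitted with limma 3.58.1 (R 4.3.3), as 6 knockdown against 3 scramble libraries, and as 3 groups for each shRNA. P-values were adjusted by Benjamini-Hochberg over all 12509 genes, with a threshold of 0.05. The main fits did not pair libraries by replicate number, and fits with a replicate block are given below. The fits were tested on simulated data. Transcript lengths came from GENCODE 29. Members, lists and tests were chosen with earlier results of these data known. All 30 genes are named, with up to 3 called genes per direction of each further list by size. Alternatives changed the pseudocount, filter, scaling, length and GC trends, pairing, libraries, entries and model.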

Additional observations from a re-analysis of the deposited data

Results flagged for a closer look

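In 4 of 44 genes examined, 1 knockdown library stood apart from the other 5 by Dixon's test, where chance flags about 1 in 20 groups. *HMGCS1* was highest in shRNA2 replicate 2, at 40.6 FPKM, and *FDFT1* was lowest in that library, at 126 FPKM. *PMVK* was highest in shRNA2 replicate 3, at 39.4 FPKM, and *NPC1* was lowest there, at 58.4 FPKM.

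The effects of the 2 shRNAs differed in the 3-group limma fit for 3 of these genes. The shRNA2 minus shRNA1 difference was -0.15 on the log2 scale for *ACAT2* (adjusted p = 0.0313), -0.18 for *FASN* (0.0163) and -0.25 for *FZD6* (0.0273). All 3 shRNA2 libraries lay below all 3 shRNA1 libraries for each of these genes.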

How the results depend on the processing

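The count of 9 genes lower after knockdown was 7 to 11 under the planned changes of pseudocount, filter, scaling, length or GC trend, entries, status and model, and 10 with only the failed values left out, an alternative chosen after seeing the data. The share of all genes tested called lower moved too, from 4.01% with no filter to 10.9% with the mean of both shRNA effects. That share was 4.8% with the length trend removed and 7.14% with the failed values left out. The count of these genes was 0 under the study's criteria, under which shRNA1 gave 1, shRNA2 gave 1 and the comparison between shRNAs 0. Under those criteria 1.78%, 2.13% and 3.22% of all genes tested were lower for knockdown, shRNA1 and shRNA2. Leaving out 1 library gave 2 to 10 for knockdown, 1 to 9 for shRNA1, 5 to 14 for shRNA2 and 0 to 1 between the shRNAs. The share of all genes tested called lower in those fits was 2.77% to 9.75%, 2.82% to 10.9%, 7.73% to 15.5% and 2.08% to 6.5%. The count of 14 included *NR1H2*, which was higher. Fitted with only the libraries compared, shRNA2 gave 5 and the comparison between shRNAs 0, where 7.78% and 2.19% of all genes tested were lower. Quantile normalization also gave 0 between the shRNAs, and 2 genes differed with no filter, a mean of at least 5 FPKM, the length or GC trend removed, protein-coding accessions or limma trend and robust. *FZD6* was called in every alternative, at -1.20 to -1.02. Enzymes minus regulators lay between 0.011 and 0.073 except with the length trend removed (-0.011).

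The 9 same-numbered pairs of libraries had correlations of -0.071 to 0.11, and 5 of 9 libraries correlated best with their own number. The second principal component (14.34% of the variance) was positive in every replicate 1 library and negative in every replicate 2 library. It had both signs among the replicate 3 libraries. Whether the shared numbers mark a shared batch was not tested. With the replicate block the knockdown count was 8 (7 with the length trend also removed), for shRNA1 8 (6), for shRNA2 11 (10) and between shRNAs 1 (1). In the same order 6.7% (3.58%), 7.95% (4.84%), 12.3% (10.8%) and 4.47% (5.58%) of all genes tested were lower. Enzymes minus regulators under the block was 0.046 and *FZD6* -1.12.

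Genes that were not called changed sign in places. With the length trend removed, with or without the replicate block, *PMVK* was at -0.017, *IDI1* at -0.024, *FDPS* at -0.051, *FDFT1* at -0.014 and *EBP* at -0.026. With quantile normalization *IDI1* was at -0.038, *FDPS* at -0.024, *FDFT1* at -0.030 and *EBP* at -0.014. With the GC trend removed *IDI1* was at -0.0042, *INSIG2* at -0.0008 and *STARD4* at -0.034, and with protein-coding accessions *IDI1* was at -0.021. Leaving out 1 library gave values on both sides of 0 for *IDI1* (-0.020 to 0.032), *NSDHL* (-0.024 to 0.015), *HSD17B7* (-0.0075 to 0.033), *INSIG2* (-0.037 to 0.089) and *STARD4* (-0.053 to 0.040). *MVK* missed the threshold with no filter (adjusted p = 0.0527), the GC trend removed (0.0963), the replicate block (0.069), protein-coding accessions (0.0553) and limma trend and robust (0.0597). With no filter *RNF139* (0.0598), *SCARB1* (0.0579) and *OSBP* (0.0505) missed it, as did *NPC2* with quantile normalization (0.114), *RABGGTB* with protein-coding accessions (0.0653), and *RNF139* (0.07) and *SCARB1* (0.0649) with the replicate block. Depth is known only by estimate, so counting error could not be given for single values.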
